A study of Homo sapiens with 3 samples.

Results

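The 45 genes described here encode subunits of the protein coats that bend membranes into transport vesicles and choose the cargo those vesicles carry. They comprise 8 subunits of the adaptor complex AP-1, 5 of AP-2, 7 of AP-3 and 4 of AP-4, the 3 chains of clathrin, 6 subunits of the COPI coat, 8 of the COPII coat, and 4 genes of retromer and its partner SNX3. The members were chosen by gene name and complex and not by a measured value, though with earlier results of these data known. Each of the 45 names matched 1 of 23284 rows in the deposited gene table, and these genes had 99 of 41138 rows in the deposited isoform table.

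Coats work at different stations of the secretory and endosomal routes. COPII buds vesicles from the endoplasmic reticulum, and COPI returns escaped proteins and receptors from the Golgi to it. Clathrin forms the outer lattice for AP-1 at the trans-Golgi network and endosomes and for AP-2 at the plasma membrane, while AP-3 and AP-4 sort cargo towards lysosome-related organelles and out of the trans-Golgi network. Retromer recycles receptors out of endosomes. An adaptor complex is built from large, medium and small subunits, and several of these positions can be filled by closely related genes.

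Polyadenylated RNA was measured in HEK293T cells, an easily transfected human embryonic kidney line, 48 h after reverse transfection with siRNA to ESRP2, siRNA to Arkadia or a negative control siRNA; there was 1 library per siRNA, and no TGF-beta was added to any of them. ESRP2 is an epithelial splicing regulator, and Arkadia is a ubiquitin ligase encoded by RNF111 and known from TGF-beta signalling. The design asks which transcripts differ after the loss of each protein. With 1 library per group there was no replicate check and no test, so each difference below is between 2 libraries and not between conditions, and in such bulk samples fewer cells with a transcript and less transcript per cell cannot be told apart.

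Levels are the authors' FPKM, by name the fragments per kilobase of transcript scaled to mapped fragments. How they were scaled between the libraries was not stated. The range in parentheses after a level is the authors' confidence interval for it. The steps between low values implied about 12.4 M reads with ESRP2 siRNA, 9.02 M with Arkadia siRNA and 11.9 M with control siRNA. The siRNA targets checked the labels: ESRP2 stood at 4.27 FPKM with ESRP2 siRNA, 21.2 with Arkadia siRNA and 14.8 with control siRNA, and RNF111 at 7.65, 1.15 and 6.38 FPKM in the same order. Of 6 genes taken as markers of an embryonic kidney line, 3, 5 and 4 reached 1 FPKM in these libraries, with VIM the highest at 301 to 410 FPKM and PAX8 near 0. All 10 markers of other cell types stayed under 1 FPKM, with summed levels of 0.863 to 1.94 FPKM. Differences are given as log2 ratios of FPKM + 1, which understate the change of low genes, over 11870 genes with a mean of at least 1 FPKM; of the 45 coat genes 44 entered, and a gene is called higher or lower when it passed 1.5-fold.

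Among the coat genes, the AP-2 medium subunit AP2M1 had 330.0 FPKM with ESRP2 siRNA, 353 with Arkadia siRNA and 232 with control siRNA, and the COPI subunit COPE had 237, 408 and 322 FPKM. At the other end, AP1M2, the medium AP-1 subunit known from polarised epithelia, was listed at 0 with ESRP2 siRNA, at 0.199 FPKM with Arkadia siRNA and at 0.0998 FPKM with control siRNA, from about 3 reads at most. It is the member that did not enter the comparisons. Summed over its subunits, AP-4 had 21.9, 16.9 and 24.7 FPKM with ESRP2, Arkadia and control siRNA, against 541, 775 and 553 FPKM for AP-2 and 900.0, 802 and 711 FPKM for COPI. AP-4 thus had the lowest sum in all 3 libraries and COPI the highest, over different numbers of subunits.

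**Figure D1:**
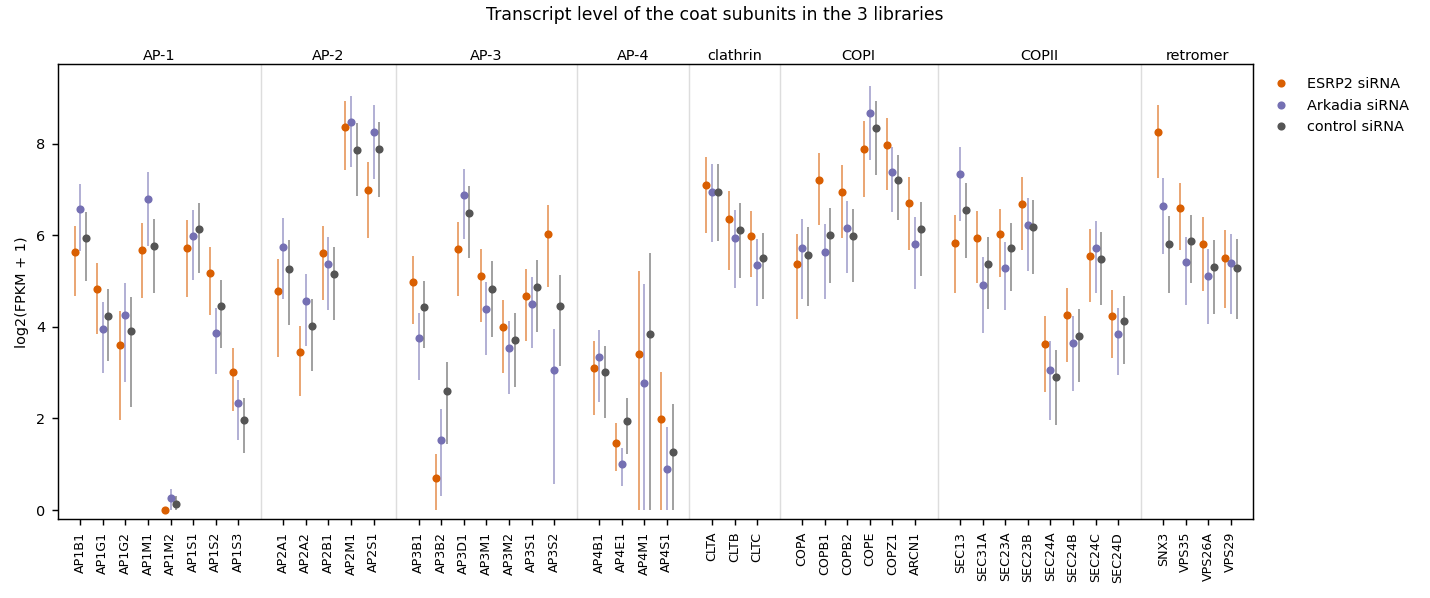
Transcript level of each of the 45 coat genes on the log2(FPKM + 1) scale, grouped by complex, in the ESRP2, Arkadia and control siRNA libraries; points are FPKM and lines the authors' confidence intervals. SNX3 at 304 FPKM and AP3B2 at 0.617 FPKM with ESRP2 siRNA have intervals apart from those of control siRNA, and AP1M2 lies near 0.

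With ESRP2 siRNA, SNX3 had the highest ratio over control siRNA of the members, and the COPI subunits COPB1, COPB2 and COPZ1, the AP-3 small subunit AP3S2 and the retromer scaffold VPS35 were also higher. AP3B2, the neuronal form of the AP-3 beta subunit, was lowest relative to control siRNA. In total 10 of 44 members were higher, a share of 22.7% against 19.9% of all genes compared, and 4 were lower, a share of 9.09% against 11.4%. These shares were near those of all genes. The median log2 ratio of the members was 0.29, and that of all genes 0.12. Scaling to the upper quartile, which moved the median of all genes by -0.15, gave 7 higher and 10 lower members, where 12.9% of all genes were higher and 17.3% lower. The intervals of ESRP2 and control siRNA were apart for 2 members, SNX3 and AP3B2, a share of 4.55% against 1.28% of all genes. Past 1.5-fold with intervals apart there was 1 higher member, SNX3, where 0.868% of all genes were called, and 1 lower, AP3B2, where 0.413% were.

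With Arkadia siRNA, SNX3, SEC13, AP1M1, AP1B1 and AP2M1 were higher and AP3S2, AP4M1, AP3B2, AP4E1, AP3B1 and AP1S2 lower. The 5 higher members made up 11.4% of 44, against 9.81% of all genes, and the 6 lower ones 13.6%, against 11.8%. Here too the shares were near those of all genes, and no member had intervals apart from control siRNA, where 0.438% of all genes did (0.194% higher and 0.244% lower past 1.5-fold). The median log2 ratio was -0.08 for the members and -0.02 for all genes. SNX3 was the only member called higher in both knockdown libraries and AP3B2 the only member called lower in both; as both comparisons share the control library, its values enter each of them. For 24 members neither comparison passed 1.5-fold.

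**Figure D2:**
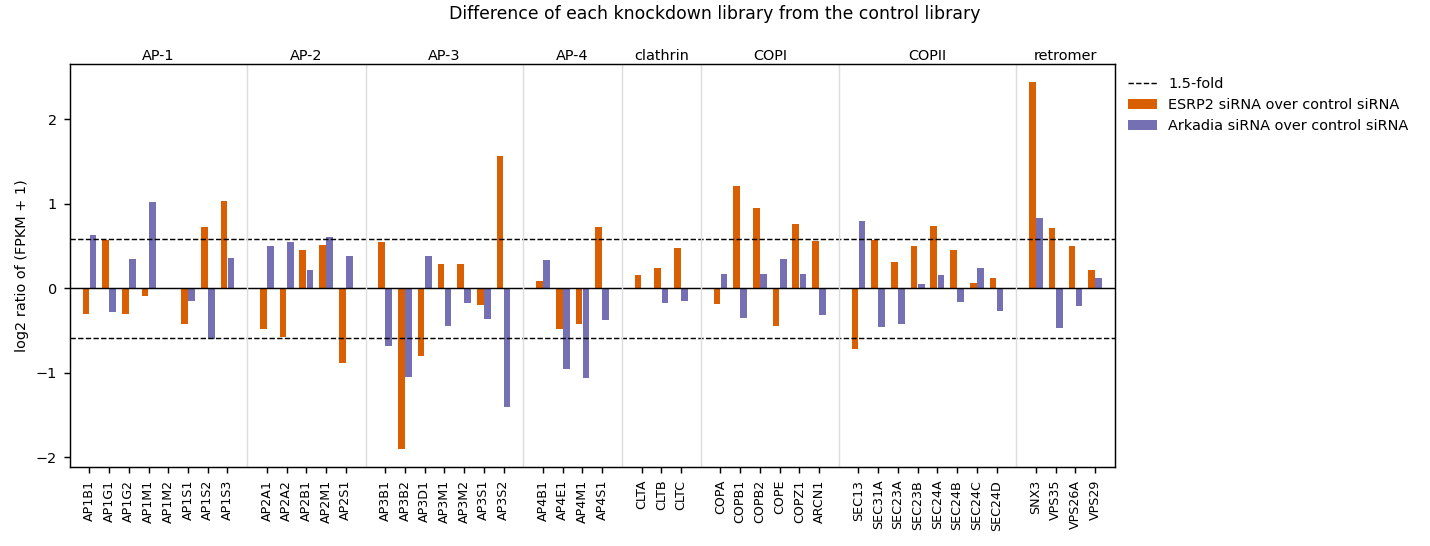
Log2 ratio of FPKM + 1 for each of the 44 members compared, for ESRP2 siRNA over control siRNA and Arkadia siRNA over control siRNA, with dashed lines at 1.5-fold. SNX3 reached 2.44 with ESRP2 siRNA and 0.83 with Arkadia siRNA, AP3B2 was at -1.90 and -1.05, and AP3S2 at 1.57 and -1.41.

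Transcript GC content moved with these ratios. Across all genes with a GC value, the median log2 ratio of ESRP2 over control siRNA was 0.60 in the lowest decile, at a median GC content of 37.5%, and -0.49 in the highest, at 64.4%; for Arkadia over control siRNA it was -0.46 and 0.34. The 44 members spanned 36.2% to 62.9% GC and followed the same slope, with a Spearman correlation of -0.59 with ESRP2 siRNA and 0.49 with Arkadia siRNA across genes of the same libraries, given as a description. After the median of each GC decile was subtracted, the members' median was 0.05 with ESRP2 siRNA and 0.04 with Arkadia siRNA, with 6 higher and 3 lower members for ESRP2 siRNA and 5 and 3 for Arkadia siRNA. Of all genes, 9.20% were then higher and 7.70% lower for ESRP2 siRNA, and 6.35% and 7.01% for Arkadia siRNA. With ESRP2 siRNA, AP2M1 at 0.61, CLTB at 0.74 and AP4E1 at -1.08 passed 1.5-fold after this subtraction and not before it, and with Arkadia siRNA AP1S3 at 0.59 and SEC24A at 0.62 did.

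**Figure D3:**
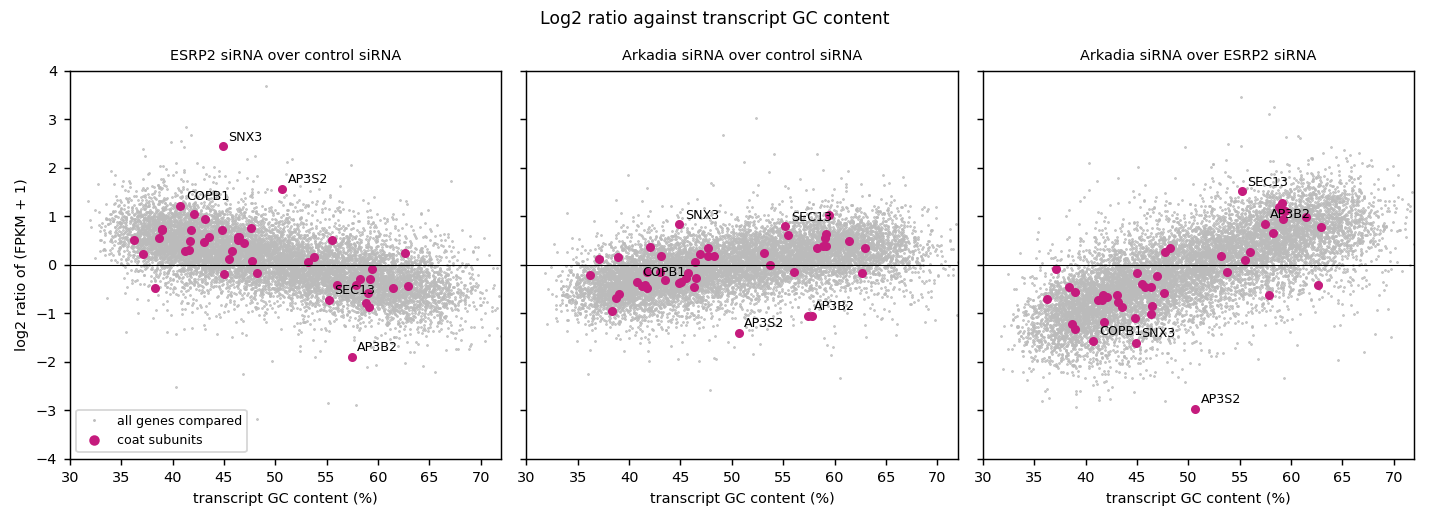
Log2 ratio of FPKM + 1 against transcript GC content for all genes compared (small grey points) and the 44 coat genes (large points) in the 3 comparisons. The coat genes follow the slope of all genes, and SNX3, AP3S2 and AP3B2 lie off it in the ESRP2 siRNA comparison.

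In AP-1, the beta subunit AP1B1 had 48.9 FPKM (24.6 to 73.2) with ESRP2 siRNA, 94.2 (49.3 to 139) with Arkadia siRNA and 60.5 (31.2 to 89.9) with control siRNA. AP1M1, the ubiquitous medium subunit, which reads tyrosine-based sorting signals, had 50.2 FPKM (23.9 to 76.5), 109.6 (53.6 to 166) and 53.4 (25.8 to 81.0) in the same order. Both were highest with Arkadia siRNA, at log2 ratios over control siRNA of 0.63 and 1.02, and the intervals overlapped. After GC subtraction AP1B1 was at 0.29, under the size of the call, and AP1M1 at 0.68.

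The small subunits of AP-1 differed among themselves. AP1S2, the X-linked form, had 35.4 FPKM (18.1 to 52.8) with ESRP2 siRNA, 13.6 (6.84 to 20.3) with Arkadia siRNA and 21.1 (10.6 to 31.6) with control siRNA. It was called higher with ESRP2 siRNA, at 0.72, and lower with Arkadia siRNA, at -0.60; after GC subtraction these were 0.12 and -0.14, and neither passed. Scaling to the upper quartile also ended the first call, at 0.55, and the median of ratios the second, at -0.57. AP1S3 had 7.06 FPKM (3.501 to 10.6), 4.05 (1.91 to 6.18) and 2.93 (1.36 to 4.49), a log2 ratio of 1.04 with ESRP2 siRNA that remained past 1.5-fold after GC subtraction, at 0.62. The most abundant form, AP1S1, was not called against control siRNA, with 51.6, 62.4 and 69.6 FPKM. The large subunits AP1G1 and AP1G2 were not called against control siRNA either, at 27.2, 14.6 and 17.9 FPKM and at 11.1, 18.2 and 14.0 FPKM; the AP1G2 locus in the table also holds other genes.

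In AP-2, which recruits clathrin to plasma membrane receptors, AP2M1 had intervals of 170.1 to 490.1 FPKM with ESRP2 siRNA, 179.6 to 528 with Arkadia siRNA and 115 to 349 with control siRNA around the levels given above. Its log2 ratios over control siRNA were 0.51 with ESRP2 siRNA and 0.61 with Arkadia siRNA, and the value with Arkadia siRNA passed 1.5-fold. That value was 0.47 after GC subtraction and 0.52 after subtraction over transcript length, short of the call. AP2S1, the small subunit that binds dileucine signals, had 127 FPKM (60.1 to 193) with ESRP2 siRNA, 305 (149.9 to 459.9) with Arkadia siRNA and 234 (114 to 354) with control siRNA. It was called lower with ESRP2 siRNA, at -0.88, which GC subtraction moved to -0.55. The alpha subunits AP2A1 and AP2A2 showed the same order, with 26.4, 52.9 and 37.2 FPKM and with 9.92, 22.9 and 15.3 FPKM, and neither was called against control siRNA. AP2B1, the beta subunit that binds clathrin, had 47.8, 40.4 and 34.7 FPKM.

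None of the clathrin chains passed 1.5-fold against control siRNA. Of all genes, 19.9% were higher and 11.4% lower with ESRP2 siRNA, and 9.81% and 11.8% with Arkadia siRNA. The heavy chain CLTC, which makes the legs of the triskelion, had 62.5 FPKM (33.1 to 91.9) with ESRP2 siRNA, 40.2 (21.1 to 59.2) with Arkadia siRNA and 44.6 (23.5 to 65.7) with control siRNA. The light chain CLTA had 137 (65.6 to 208), 122 (56.6 to 188) and 122 FPKM (57.7 to 188), and CLTB had 80.8 (36.9 to 125), 60.1 (28.0 to 92.4) and 68.1 FPKM (32.8 to 103). Their log2 ratios lay between 0.16 and 0.48 with ESRP2 siRNA and between -0.18 and 0.00 with Arkadia siRNA. For Arkadia over ESRP2 siRNA, CLTC was called lower at -0.62, or 0.005 after GC subtraction. CLTA at -0.16 and CLTB at -0.42 were not called there. After GC subtraction CLTA was at -0.40 and CLTB at -1.22, past 1.5-fold. For ESRP2 over control siRNA CLTB was at 0.74 after GC subtraction, also past 1.5-fold. The intervals overlapped in every comparison of the chains, and with 1 library per group no detectable size can be given.

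AP-3, which carries cargo to lysosomes, melanosomes and synaptic vesicles, held the member lowest relative to control siRNA. AP3B2 (chromosome 15, 83211951 to 83378635 on hg19, a locus in the table that also holds CPEB1) had 0.617 FPKM (0 to 1.34) with ESRP2 siRNA, 1.90 (0.239 to 3.59) with Arkadia siRNA and 5.03 (1.72 to 8.36) with control siRNA, from about 28, 64 and 223 reads. Its FPKM ratio over control siRNA was 0.123 with ESRP2 siRNA, where the intervals were apart, and 0.378 with Arkadia siRNA, where they overlapped. The log2 ratios of -1.90 and -1.05 became -1.67 and -1.30 after GC subtraction, and with a pseudocount of 0.1 in place of 1 the log2 ratio with ESRP2 siRNA was -2.84. AP3B1, its ubiquitous relative, had 30.7 (15.6 to 45.8), 12.5 (6.21 to 18.8) and 20.8 FPKM (10.5 to 31.0) in the same order, and was called lower with Arkadia siRNA, at -0.69, which GC subtraction moved to -0.23.

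AP3S2, a small AP-3 subunit (chromosome 15, 90373831 to 90456222 on hg19), had 64.5 FPKM (28.1 to 101) with ESRP2 siRNA, 7.34 (0.487 to 14.4) with Arkadia siRNA and 21.1 (7.89 to 34.3) with control siRNA. Its FPKM ratios over control siRNA were 3.06 and 0.347. Both knockdown intervals overlapped that of control siRNA, while those of Arkadia and ESRP2 siRNA were apart. Its locus overlaps the readthrough gene C15orf38-AP3S2, which had 20.9 FPKM (1.43 to 40.8), 16.3 (5.61 to 27.1) and 9.49 (0.637 to 18.6), so the division of reads between these genes is uncertain. Summed over both genes the levels were 85.4, 23.7 and 30.6 FPKM, and the log2 ratios were 1.451 with ESRP2 siRNA and -0.36 with Arkadia siRNA. The call with ESRP2 siRNA therefore held for the sum, and the call with Arkadia siRNA did not. The large subunit AP3D1 had 50.9 FPKM (24.5 to 77.2), 117 (59.6 to 175) and 89.4 (44.4 to 134), and was called lower with ESRP2 siRNA, at -0.80, or -0.47 after GC subtraction. AP3M1, AP3M2 and AP3S1 were not called against control siRNA, with log2 ratios over it between -0.44 and 0.29.

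AP-4 is the scarce coat that exports the autophagy protein ATG9A from the trans-Golgi network. Of its 4 members 1 was higher with ESRP2 siRNA and 2 were lower with Arkadia siRNA. Of all genes 19.9% were higher with ESRP2 siRNA and 11.8% lower with Arkadia siRNA. AP4S1 had 2.97 FPKM (0 to 7.14) with ESRP2 siRNA, 0.852 (0 to 2.53) with Arkadia siRNA and 1.41 (0 to 3.97) with control siRNA, a log2 ratio of 0.72 with ESRP2 siRNA and 0.41 after GC subtraction. AP4E1, the large epsilon subunit, had 1.77 (0.794 to 2.74), 1.002 (0.434 to 1.58) and 2.87 FPKM (1.33 to 4.43), and its log2 ratio with Arkadia siRNA was -0.95, or -0.49 after GC subtraction. AP4M1 had 9.65 (0 to 36.3), 5.85 (0 to 29.8) and 13.3 FPKM (0 to 47.9); its locus in the table also holds MCM7, at 231, 293 and 306 FPKM, and all 3 intervals reached 0. Its log2 ratio with Arkadia siRNA was -1.06. The AP4S1 locus in turn also holds STRN3, at 15.6, 7.17 and 9.96 FPKM. AP4B1 was not called against control siRNA, at 7.53, 9.17 and 7.05 FPKM.

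COPI held 3 higher members of 6 with ESRP2 siRNA, where 19.9% of all genes were higher. It held no call with Arkadia siRNA, where 9.81% of all genes were higher and 11.8% lower. After GC subtraction 1 of the 6 was higher with ESRP2 siRNA, where 9.20% of all genes were then higher. COPB1 (chromosome 11, 14479049 to 14521441 on hg19), the beta subunit of the COPI adaptor layer, had 147 FPKM (73.4 to 221) with ESRP2 siRNA, 49.0 (23.3 to 74.8) with Arkadia siRNA and 63.0 (30.2 to 96.2) with control siRNA. Its FPKM ratio was 2.34 with ESRP2 siRNA, and its log2 ratio of 1.21 was 0.70 after GC subtraction. COPB2, the beta prime subunit of the outer layer, had 122 (60.5 to 184), 71.0 (35.0 to 107) and 62.8 FPKM (30.5 to 95.1), and COPZ1, the zeta subunit, had 251 (127 to 375), 166 (90.5 to 241) and 148 FPKM (80.3 to 214). Their log2 ratios with ESRP2 siRNA were 0.95 and 0.76, and 0.54 and 0.56 after GC subtraction, just under 1.5-fold. ARCN1, the delta subunit, was just under the size of the call with ESRP2 siRNA, at 103, 55.6 and 69.3 FPKM and a log2 ratio of 0.56. COPA had 40.8, 52.1 and 46.3 FPKM. GC-rich COPE had an interval of 114 to 361 FPKM with ESRP2 siRNA, 199.8 to 616 with Arkadia siRNA and 158 to 486 with control siRNA, and its log2 ratios of -0.44 and 0.34 passed in neither comparison.

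In COPII, SEC13, an outer-cage subunit that is also part of the nuclear pore, differed from control siRNA in opposite directions. It had 55.6 FPKM (25.6 to 85.6) with ESRP2 siRNA, 161 (79.0 to 243) with Arkadia siRNA and 92.5 (44.4 to 141) with control siRNA, and its log2 ratios of -0.72 and 0.79 were -0.62 and 0.65 after GC subtraction. Both calls held there, although the intervals overlapped in each comparison. SEC31A, which forms the cage together with SEC13, had 60.5, 29.3 and 40.6 FPKM, with log2 ratios of 0.57 and -0.45, short of the call. Of the inner-coat subunits that bind SAR1 and cargo, SEC24A was called higher with ESRP2 siRNA, at 11.4 FPKM (4.98 to 17.9), against 7.35 (2.89 to 11.8) with Arkadia siRNA and 6.47 (2.64 to 10.3) with control siRNA; its log2 ratio of 0.74 was 0.14 after GC subtraction and 0.58 with upper quartile scaling, short of the call. SEC23B, the most abundant inner-coat gene, had 102 FPKM (50.0 to 154), 74.1 (36.5 to 112) and 71.8 (34.8 to 109) and was not called against control siRNA, nor were SEC23A, SEC24B, SEC24C and SEC24D.

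Retromer held the member with the highest ratio over control siRNA in the ESRP2 siRNA library. SNX3 (chromosome 6, 108532717 to 108582464 on hg19) is a sorting nexin that binds endosomal phosphoinositide and brings retromer to cargo such as the Wnt carrier WLS. It had 304 FPKM (152 to 457) with ESRP2 siRNA, 99.05 (47.2 to 151) with Arkadia siRNA and 55.4 (25.9 to 84.9) with control siRNA, from about 5499, 1305 and 969 reads. The ESRP2 siRNA library lay apart from the other 2, whose intervals overlapped. Its FPKM ratio over control siRNA was 5.49 with ESRP2 siRNA and 1.79 with Arkadia siRNA. The log2 ratios of 2.44 and 0.83 were 2.13 and 1.001 after GC subtraction.

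The core retromer subunits stood closer to control siRNA than SNX3. VPS35, the scaffold, had 95.3 FPKM (50.4 to 140) with ESRP2 siRNA, 41.5 (21.2 to 61.7) with Arkadia siRNA and 57.9 (30.1 to 85.8) with control siRNA. Its log2 ratio of 0.71 with ESRP2 siRNA was 0.58 with the median of ratios, 0.54 with the upper quartile and 0.30 after GC subtraction, each short of the call. VPS26A, an arrestin-like subunit, and VPS29 were not called against control siRNA, at 55.1, 33.4 and 38.6 FPKM and at 44.4, 41.4 and 38.1 FPKM. SNX3 was above VPS35 with ESRP2 siRNA, where the intervals of these genes were apart. It was also above VPS35 with Arkadia siRNA and slightly below it with control siRNA, but in both the intervals overlapped.

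Where related genes fill the same position of a coat, their shares of the summed FPKM can be set side by side. At the AP-3 small subunit, AP3S2 made up 72.3% with ESRP2 siRNA, 25.2% with Arkadia siRNA and 42.6% with control siRNA, with the caution on its readthrough gene. At the AP-3 beta position AP3B2 made up 1.97%, 13.2% and 19.5%, so nearly all of it was AP3B1 with ESRP2 siRNA. Among the AP-1 small subunits AP1S2 had 37.7%, 17.0% and 22.5%, and at the AP-1 gamma position AP1G1 had 70.9%, 44.6% and 56.1% beside AP1G2. Other positions moved less: AP2A1 held 72.7%, 69.8% and 70.8% of the AP-2 alpha position, AP3M1 69.2%, 65.3% and 69.4% of the AP-3 mu position, and CLTA 62.8%, 67.0% and 64.3% of the clathrin light chains. SEC23B held 61.4%, 66.0% and 58.2% of the SEC23 position. Among the 4 SEC24 genes, SEC24C held 49.0%, 61.6% and 54.9%. These shares are not adjusted for GC content, which differs between related genes. It is 39.0% for AP1S2 and 56.0% for AP1S1, and 46.5% for AP1G1 and 58.3% for AP1G2. Among positions that moved less, it is 61.4% for AP2A1 and 59.0% for AP2A2, but 53.7% for CLTA and 62.7% for CLTB. What part of the movement goes with GC content was not tested.

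**Figure D4:**
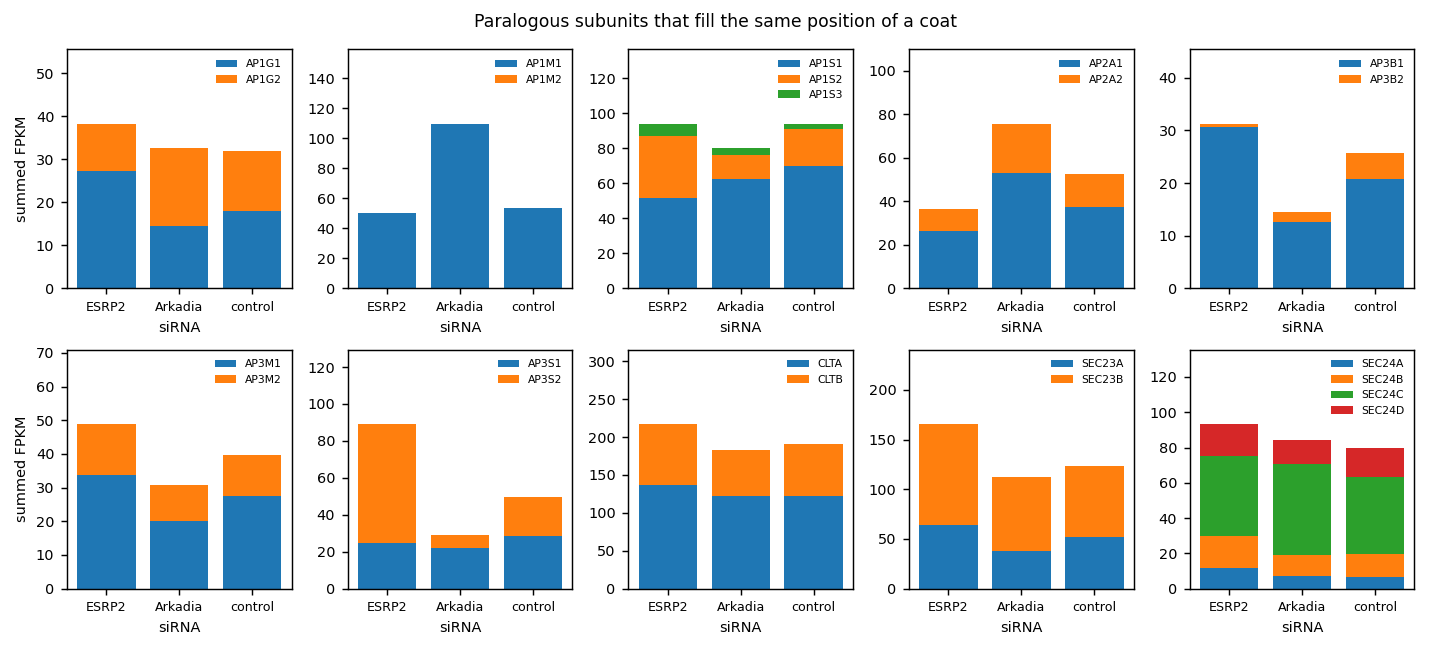
Summed FPKM of related subunits that fill the same position of a coat, stacked by gene, in the ESRP2, Arkadia and control siRNA libraries; each panel is 1 position and has its own linear axis from 0. AP3S2 takes 72.3% of the AP-3 small subunits with ESRP2 siRNA and 25.2% with Arkadia siRNA, and the clathrin light chains keep similar shares.

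Isoforms were compared for the 29 members that had at least 2 deposited isoforms and a summed level of at least 5 FPKM in each library, by the change of isoform shares summed over isoforms and divided by 2. With ESRP2 siRNA, 5 of 29 members, or 17.2%, changed usage by at least 0.25 relative to control siRNA, against 20% of all 3413 genes compared. With Arkadia siRNA 4 members did, or 13.8%, against 17.1% of all genes. Between Arkadia and ESRP2 siRNA 8 did, or 27.6%, against 26.4%. These shares were near or below those of all genes. The share of all isoforms with intervals apart was not computed, so the isoforms named for this below have no background. Some isoform intervals near 0 do not hold their own estimate. A SEC31A isoform at 0.00706 FPKM with ESRP2 siRNA, for instance, has an interval of 0 to 0.

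Alternative coding segments of AP2A2, AP2B1, SEC24B, SEC31A and SNX3 are printed here from GENCODE 29 transcripts on GRCh38, matched by RefSeq accession, since their isoforms differ by whether the segment is present; capitals mark the alternative segment and lower case the 12 coding bases on each side.
AP2A2 (chr11:985432-985434, plus strand): acccacccccagAAGaccctgcagtgc
AP2B1 (chr17:35670857-35670898, plus strand): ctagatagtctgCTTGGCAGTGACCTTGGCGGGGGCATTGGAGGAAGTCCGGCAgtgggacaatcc
SEC24B (chr4:109481677-109481781, plus strand): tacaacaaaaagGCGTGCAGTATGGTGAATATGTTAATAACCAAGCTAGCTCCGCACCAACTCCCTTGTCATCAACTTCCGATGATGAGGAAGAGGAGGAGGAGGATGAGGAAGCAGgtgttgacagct
SEC31A (chr4:82842140-82842184, minus strand): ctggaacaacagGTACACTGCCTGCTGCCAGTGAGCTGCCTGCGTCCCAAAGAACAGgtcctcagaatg
SNX3 (chr6:108222950-108223045, minus strand): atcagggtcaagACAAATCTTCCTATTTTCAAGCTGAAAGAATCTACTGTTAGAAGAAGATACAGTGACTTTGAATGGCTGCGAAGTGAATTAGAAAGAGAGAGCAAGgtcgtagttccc

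AP2A2 had the largest usage change of the members with ESRP2 siRNA. Its isoform with the 3 nt segment made up 0.115% with ESRP2 siRNA, 0.113% with Arkadia siRNA and 56.1% with control siRNA. The isoform levels were 0.0114 FPKM (0 to 0.0377), 0.0259 (0 to 0.0377) and 8.60 (2.58 to 14.6), so the intervals of both knockdown libraries were apart from control siRNA. The isoform without the segment had 9.91, 22.8 and 6.73 FPKM, with overlapping intervals. The 2 isoforms differ in length by only 3 nt, so only reads across that segment separate them. Whether the narrow knockdown intervals near 0 cover this uncertainty is not known.

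AP2B1 showed a graded order. Its isoform with the 42 nt segment made up 77.1% with ESRP2 siRNA, 55.6% with Arkadia siRNA and 34.5% with control siRNA. The levels of this isoform were 36.9 FPKM (15.4 to 58.3), 22.5 (7.57 to 37.5) and 11.97 (1.86 to 22.1), and those of the shorter one 10.9 (0.426 to 22.4), 18.0 (4.76 to 31.2) and 22.8 (8.69 to 36.9). The order of the isoforms was turned between ESRP2 and control siRNA, while the intervals of each isoform overlapped across libraries.

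SEC24B differed in the opposite way. The isoform with its 105 nt segment made up 24.5% with ESRP2 siRNA, 40.0% with Arkadia siRNA and 59.1% with control siRNA. Its levels were 4.47 FPKM (0.170 to 8.96), 4.602 (0.755 to 8.46) and 7.69 (2.38 to 13.0), and the isoform without it had 13.8 (5.30 to 22.3), 6.90 (2.09 to 11.7) and 5.31 (0.889 to 9.74). The usage change from control siRNA was 0.35 with ESRP2 siRNA and 0.19 with Arkadia siRNA, with overlapping intervals. The locus of SEC24B in the table also holds 1 other listed gene.

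COPB1 isoforms are listed with 3 different transcription starts and differ in length by at most 122 nt. The shortest made up 87.5% with ESRP2 siRNA, 33.7% with Arkadia siRNA and 51.5% with control siRNA. At 129 FPKM (60.3 to 198) with ESRP2 siRNA it was apart from Arkadia siRNA at 16.6 (1.46 to 31.9) and from control siRNA at 32.5 (9.85 to 55.4). Neither of the others was higher with ESRP2 siRNA: the 3429 nt isoform had 16.0, 21.2 and 22.6 FPKM and the longest 2.36, 11.2 and 7.97 FPKM. The higher COPB1 level with ESRP2 siRNA thus lay in the shortest isoform.

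The 6 isoforms of SEC31A were divided differently in each library, with usage changes of 0.47 for ESRP2 siRNA and 0.40 for Arkadia siRNA. The shortest, of 3910 nt, had 19.0 FPKM (2.06 to 36.6) with ESRP2 siRNA, 0.495 (0 to 2.56) with Arkadia siRNA and 0.749 (0 to 3.75) with control siRNA. Like it, the isoform of 4207 nt lacks the printed 45 nt segment, but it ran the other way, with 0.00706, 0 and 8.77 FPKM. Its interval with control siRNA was 0.188 to 18.2. Another isoform, of 4047 nt, had 10.6 (0.349 to 23.4), 5.97 (0.0436 to 13) and 0.00124 FPKM. The isoform of 4135 nt was the most abundant in each library, at 24.9, 11.03 and 22.7 FPKM. Several of these intervals thus began at or near 0. For the isoforms of 4207 and 4047 nt the intervals of both knockdown libraries were apart from control siRNA, by bounds near 0. The control siRNA interval of the 4047 nt isoform was 0 to 0, which does not hold its own estimate.

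Among the members called with Arkadia siRNA, SEC24A had its long isoform of 6391 nt at 85.4% with ESRP2 siRNA, 41.8% with Arkadia siRNA and 80.6% with control siRNA, with 9.77, 3.07 and 5.22 FPKM and overlapping intervals between Arkadia and control siRNA. AP3S2 had its coding isoform of 5934 nt at 79.3%, 33.4% and 96.3%; its level of 2.45 FPKM (0 to 6.86) with Arkadia siRNA had an interval apart from those of 51.2 (19.7 to 82.8) with ESRP2 siRNA and 20.3 (7.28 to 33.4) with control siRNA. A non-coding AP3S2 isoform of 6053 nt had 4.03, 4.88 and 0.787 FPKM. The uncertain division of reads with the readthrough gene applies to these AP3S2 isoform levels too. The remaining genes among the 8 largest changes of either knockdown stayed under 0.25: AP3D1 at 0.23, ARCN1 at 0.18 and AP3M1 at 0.18 with ESRP2 siRNA, and AP2B1 at 0.21, VPS29 at 0.21 and AP3M1 at 0.18 with Arkadia siRNA.

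**Figure D5:**
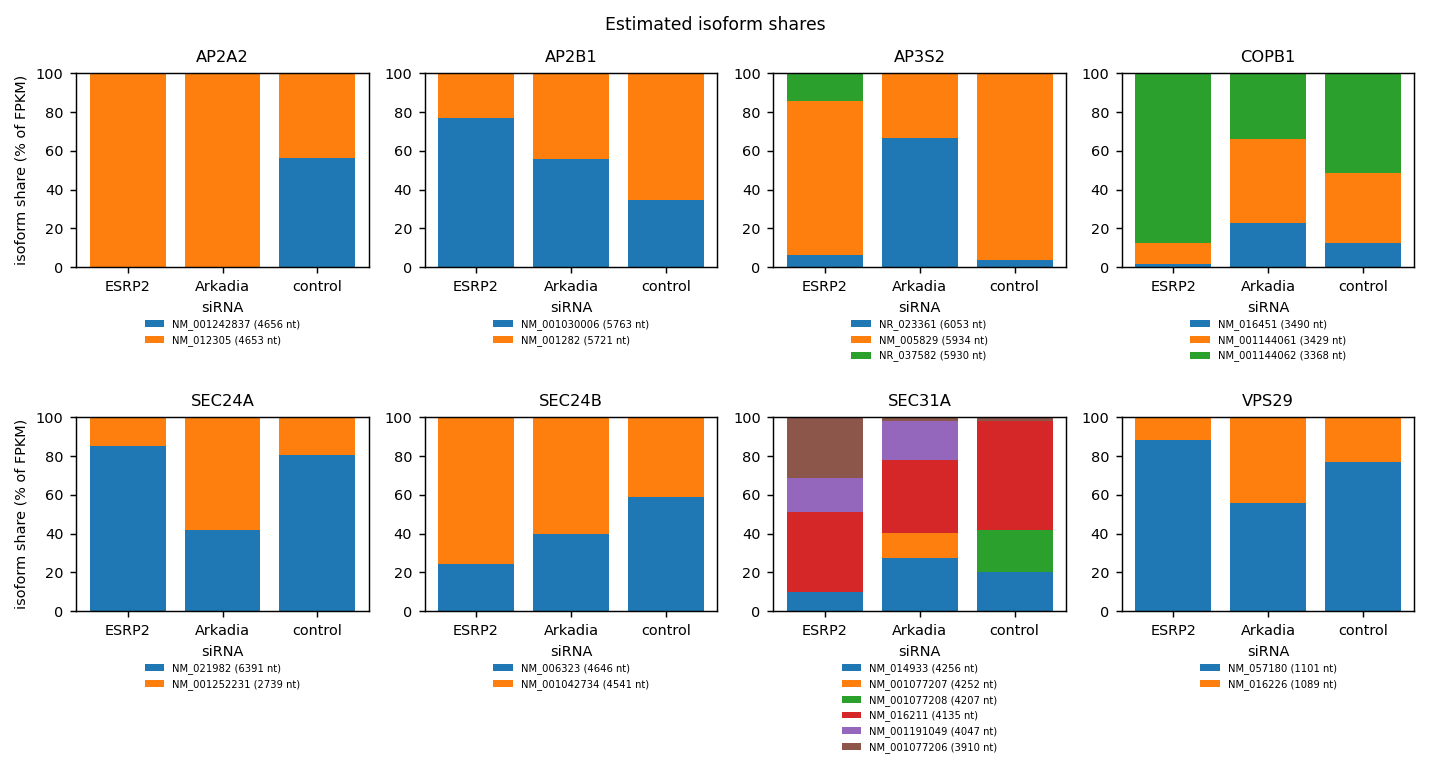
Share of each deposited isoform in the summed FPKM of its gene, in percent, for 8 coat genes in the ESRP2, Arkadia and control siRNA libraries, with isoform lengths in the legends. The AP2B1 isoform with the 42 nt segment takes 77.1%, 55.6% and 34.5%, and the shortest COPB1 isoform 87.5%, 33.7% and 51.5%.

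SNX3 was carried by its isoform that includes the 96 nt segment in each library. That isoform had 296 FPKM (148 to 445) with ESRP2 siRNA, 96.1 (45.8 to 146) with Arkadia siRNA and 55.4 (26.0 to 84.9) with control siRNA. The isoform without the segment had 8.11 FPKM (0 to 33.99), 2.99 (0 to 12.9) and 0 (0 to 0.144). The higher SNX3 level with ESRP2 siRNA was therefore seen in the isoform with the segment.

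The clathrin light chains carry insertions known from neurons, and these segments are shown because their isoform levels show whether that form was present.
CLTA (chr9:36209267-36209320, plus strand): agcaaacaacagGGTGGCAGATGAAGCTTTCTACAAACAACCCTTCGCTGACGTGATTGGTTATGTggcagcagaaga
CLTB (chr5:176396479-176396532, minus strand): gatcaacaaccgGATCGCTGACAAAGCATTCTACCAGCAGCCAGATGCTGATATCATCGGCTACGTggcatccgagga
Both segments, in capitals, are 54 nt long and share 35 bases at the same position, or 64.8%. The CLTA isoforms with this segment were listed at 0 in all 3 libraries, and the CLTB isoform with it made up 0.413% with ESRP2 siRNA, 0.309% with Arkadia siRNA and 1.48% with control siRNA. The CLTA isoform without any insertion made up 95.3%, 96.9% and 92.3%. The forms with this segment thus made up at most 1.48% of either light chain in each library.

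Set directly against each other, the Arkadia siRNA library had 10 members higher than the ESRP2 siRNA library and 19 lower. These were 22.7% and 43.2% of 44, against 21.2% and 30.8% of all genes, and the median log2 ratio was -0.46 for the members and -0.14 for all genes. Scaling by the median of ratios, which moved the median of all genes by 0.14, gave 10 higher and 11 lower members, where 26.1% of all genes were higher and 25.2% lower, so the members' share of lower genes was then near that of all genes. The slope over GC content was steeper here, with a Spearman correlation of 0.70 across the members, and subtraction left 4 higher and 6 lower members and a median of 0.00, where 12.4% of all genes were higher and 14.1% lower. The intervals of the libraries were apart for AP3S2 and SNX3, or 4.55% of members against 6.36% of all genes. Past 1.5-fold these were 0 higher members, where 1.9% of all genes were called, and 2 lower, where 4.47% were. SEC13 was highest relative to ESRP2 siRNA at a log2 ratio of 1.52, or 1.27 after GC subtraction, and AP3S2 lowest at -2.97, or -2.95. The division of reads between AP3S2 and its readthrough gene is uncertain. Summed over both genes the levels were 23.7 FPKM with Arkadia siRNA and 85.4 with ESRP2 siRNA. COPB1 was at -1.57 and SNX3 at -1.61, or -0.71 and -1.13 after subtraction.

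Genes that work with the coats were counted in the same way, beside 19.9% higher and 11.4% lower of all genes with ESRP2 siRNA and 9.81% and 11.8% with Arkadia siRNA. Of 18 other coat, adaptor and retromer subunits compared, 3 were higher and 1 lower with ESRP2 siRNA, and 1 and 2 with Arkadia siRNA, with medians of 0.16 and 0.02. SNX2 and SNX6, sorting nexins that tubulate endosomes, had 111, 43.4 and 83.3 FPKM and 53.4, 15.4 and 29.3 FPKM with ESRP2, Arkadia and control siRNA; SNX12, the closest relative of SNX3, had 59.6, 45.4 and 32.3 FPKM. SNX12 was thus above control siRNA in both knockdown libraries, at log2 ratios of 0.86 and 0.48, the first past 1.5-fold. Of 28 clathrin accessory genes, 7 were higher and 2 lower with ESRP2 siRNA and 2 and 3 with Arkadia siRNA, with medians of 0.13 and 0.06. PICALM, which sets vesicle size, had 53.2, 21.3 and 22.4 FPKM, and the AP-2 partners NECAP1 and NECAP2 had 52.8, 14.98 and 22.002 FPKM and 34.7, 32.3 and 16.5 FPKM. These levels are not adjusted for GC content. It is 42.0% for SNX2, 41.2% for SNX6 and 50.0% for SNX12. For PICALM, NECAP1 and NECAP2 it is 44.0%, 44.4% and 53.5%. After GC subtraction the medians with ESRP2 and Arkadia siRNA were 0.10 and -0.05 for the other subunits. For the clathrin accessory genes they were 0.07 and 0.02.

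Of 22 ARF and SAR1 GTPases and regulators, 4 were higher and 4 lower with ESRP2 siRNA and 1 and 2 with Arkadia siRNA, with medians of 0.05 and 0.03. The 3 genes with the largest ratios are named here, and the 4 lower ones are not among them. The COPII GTPase genes SAR1A and SAR1B had 94.7, 26.4 and 45.2 FPKM and 18.1, 4.95 and 4.59 FPKM, both highest with ESRP2 siRNA. For SAR1B the interval with ESRP2 siRNA, 8.68 to 27.5, was apart from that with control siRNA, 1.98 to 7.20. MIA3, which loads collagen at COPII exit sites, had 27.3, 13.7 and 11.98 FPKM. Of 26 cargo receptors and cargo genes, 5 were higher and 3 lower with ESRP2 siRNA and 1 and 4 with Arkadia siRNA, with medians of 0.23 and -0.10. ERGIC2 had 54.4, 13.0 and 22.7 FPKM, its partner ERGIC3 110.5, 369 and 257 FPKM, and the cargo exporter CNIH 138, 37.8 and 88.6 FPKM. ERGIC2 has a GC content of 34.8% and ERGIC3 of 55.3%, and their levels ran in opposite orders across the libraries. GC content is 42.9% for SAR1A, 43.1% for SAR1B, 41.1% for MIA3 and 36.7% for CNIH. The levels given here are not adjusted for it. After GC subtraction the medians with ESRP2 and Arkadia siRNA were 0.005 and 0.07 for the GTPases and regulators. For the cargo receptors and cargo genes they were 0.02 and -0.05.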

How the data were processed

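Polyadenylated RNA of HEK293T cells was measured in 3 libraries, 1 per siRNA. Gene and isoform FPKM values with interval bounds were used as deposited. Per the submitters' processing notes, the tools were Cuffdiff, Cufflinks 2.1.1, TopHat2 2.0.10 and Bowtie2 2.1.0, and the build was hg19; how they were combined and scaled, the model behind the intervals and the treatment of strand were not stated there.

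Log2 ratios of FPKM + 1 were computed for genes of mean FPKM 1 or more, status OK and a longest isoform of 300 nt or more. Implied reads are estimates. The step size of low interval bounds, taken over the 3 libraries together, gave a unit shared by 1738 of 2034 genes with a unit (tolerance 0.01). The spacing of low FPKM values in that unit then gave the reads of each library. Transcript GC content was taken from GENCODE 29, by RefSeq accession or else by symbol, for 99.1% of genes compared. Loci are on hg19 and printed segments on GRCh38. Python 3.11.15, pandas 2.3.3 and NumPy 2.4.6 were used, and the scripts were tested on simulated data.

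Values are given per complex for the 2 most abundant members, those past 1.5-fold, those with intervals apart and those under the filter, for the 8 largest usage changes per knockdown, and for up to 3 genes per other list. The clathrin insertions and SNX3 isoforms were added after their values were seen. The members, lists and thresholds were chosen with earlier results of these data known. Alternatives changed the pseudocount, filter, scaling, GC or length subtraction, table, fold size and interval rule.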

Additional observations from a re-analysis of the deposited data

How the results depend on the processing

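With 1 library per group, no result could be repeated without a replicate, and no paired analysis was possible because no group has more than 1 library. Of the 14, 11 and 29 members called for ESRP2 over control, Arkadia over control and Arkadia over ESRP2 siRNA, 6 in each kept the call under all 9 recomputed ratios in which they were compared. Calls were lost only under the median of ratios, the upper quartile, and GC or length subtraction. The filter and isoform table settings left the ratios nearly unchanged, and a smaller or no pseudocount could only widen them. For ESRP2 over control siRNA, scaling to the upper quartile gave 10 lower members and subtraction over length gave 7, against 4. Of all genes 17.3% and 15.5% were then lower. Subtraction over GC content gave 6 higher members and a median of 0.0485, where 9.20% of all genes were higher. A 2-fold size gave 4 higher and 1 lower, and 1.5-fold with intervals apart 1 and 1. For Arkadia over control siRNA, subtraction over GC content gave 3 lower members and turned the median to 0.0421, and a minimum mean of 5 FPKM turned it to 0.0221. The 2-fold size gave 1 higher and 3 lower, intervals apart gave 0 and 0, and leaving out members whose locus overlaps another gene, an alternative chosen after seeing the data, gave 2 lower. For Arkadia over ESRP2 siRNA, the median of ratios and the upper quartile each gave 11 lower members, subtraction over GC content gave 4 higher and 6 lower with a median of 0.00277 and COPE at -0.0172, the 2-fold size 5 and 8, intervals apart 0 and 2, and leaving out overlapping loci 6 higher. A usage threshold of 0.15 gave 11 members for ESRP2 siRNA and 9 for Arkadia siRNA, and a summed level of at least 10 FPKM gave 1 for Arkadia siRNA. The cause of these shifts was not tested. Shares of all genes were not computed for the calls kept under all 9 recomputed ratios. Nor were they computed for the 2-fold size, the usage alternatives or the exclusion of overlapping loci. Those counts therefore cannot be set against all genes. Low read numbers limit AP3B2, with about 28, 64 and 223 reads with ESRP2, Arkadia and control siRNA.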
